A study of Saccharomyces cerevisiae with 2 samples.

Results

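The 3′ ETS is the external transcribed spacer that follows the 25S rRNA at the end of the yeast 35S pre-rRNA, and it was examined together with 50 nt of genome on either side of the transcript. The 3 regions hold 311 nucleotides, 4.47% of those for which fragment coverage was deposited, and the 3′ ETS is also counted as 2 of 7127 features, 1 in each rDNA copy of the genome build. The members were chosen by their position in the annotation and not by their values, though earlier results of these data were known. They were measured by RNA-seq of total RNA without removal of rRNA in haploid npl3∆ cells, which lack the gene of the SR-like RNA-binding protein Npl3, and in wild type cells of *Saccharomyces cerevisiae*, both grown at 25 °C and each sequenced as 1 library from 200 ng of RNA. The study asked what Npl3 does in quality control of rRNA.

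With 1 library of each genotype there is no replicate spread and no test. Each ratio of npl3∆ to wild type is therefore given with a 95% exact conditional binomial (Clopper-Pearson) interval, which covers counting error only. *NPL3* itself had 3 counts in npl3∆ and 1345 in wild type, which matched the labels. The libraries also differed in mating type: *MFA2*, an a-factor gene, had 1 count in npl3∆ and 990 in wild type, while *MF(ALPHA)1*, an α-factor gene, had 7558 in npl3∆ and 4 in wild type. The labels do not name the strains. The deletion, the mating type and the library preparation cannot be told apart. The tables held 401753674 counts for npl3∆ and 421789474 for wild type, almost all of them on rRNA, and the 25S rRNA was covered in npl3∆ at 0.968 times the level of wild type.

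RNA polymerase I transcribes the 35S pre-rRNA from a single start and runs past the end of the 25S rRNA into the 3′ ETS. There, the nascent RNA folds into a hairpin with an AGNN tetraloop that the endonuclease Rnt1 recognises and cuts, which frees the pre-rRNA and gives the exonuclease Rat1 an entry site on the RNA still attached to the polymerase. Farther on, a site bound by Reb1 or its relative Nsi1 pauses the polymerase, and a T-rich stretch beyond it acts as a second place of termination. The remaining 3′ ETS on the pre-rRNA is removed by 3′ exonucleases such as Rex1, so that the mature 25S rRNA carries none of it.

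These elements were located in the genome sequence, since the coverage below is described by them. The 3′ ETS lies on the minus strand at chrXII:451575-451785 (*ETS2-1*) and chrXII:460712-460922 (*ETS2-2*) of sacCer3, annotated as non-coding in both copies. The flank downstream of it is annotated as non-transcribed spacer in copy 2 (chrXII:460662-460711) and carries no feature in copy 1 (chrXII:451525-451574), while the flank upstream of the start (chrXII:458433-458482 in copy 1) is non-transcribed spacer in both. The 2 rDNA copies of the build do not differ at any position of the covered stretch, so a fragment from here cannot be assigned to a copy by its sequence. The strand of the RNA is shown 5′ to 3′ at the coordinates of copy 1, with the RefSeq genome sequence, and the capitals mark the AGGA tetraloop and the Reb1 motif in the 3′ ETS and the longest run of T in the downstream flank.
3′ ETS: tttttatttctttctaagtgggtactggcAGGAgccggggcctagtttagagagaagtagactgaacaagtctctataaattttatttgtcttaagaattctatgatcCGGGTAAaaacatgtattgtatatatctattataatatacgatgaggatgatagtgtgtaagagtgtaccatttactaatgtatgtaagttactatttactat
downstream flank: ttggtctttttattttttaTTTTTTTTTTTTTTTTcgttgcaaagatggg
upstream flank: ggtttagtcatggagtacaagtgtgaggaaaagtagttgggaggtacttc

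The regions were poor in G and C downstream and richer upstream, with 31.8% in the 3′ ETS, 22.0% in the downstream flank and 44.0% in the upstream flank. The first 60 nt of the 3′ ETS were predicted by RNAfold to form a single hairpin of 24 base pairs from position 5 to 59 after the 25S rRNA, with a folding energy of -29.8 kcal/mol and the AGGA tetraloop at positions 30 to 33. The motif CGGGTAA, the reverse complement of the TTACCCG core bound by Reb1, was found once, at positions 109 to 115 and on the strand of the RNA, after a search of both strands of the 3 regions. For comparison, 753 of 57203 windows of the same length as the 3′ ETS in the nuclear genome (1.32%) hold it on either strand. The T run of the downstream flank is 16 nt long and lies 20 to 35 nt beyond the 3′ ETS, and 0.103% of windows of 50 nt hold a run of that length on either strand. These matches describe the sequence and say nothing of what was bound.

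The 3′ ETS had the fewest counts and the lowest mean coverage of the parts of the 35S pre-rRNA in both libraries, and it was lower in npl3∆. *ETS2-1* had 286 counts in npl3∆ and 436 in wild type, a ratio of 0.656 (0.563 to 0.763). *ETS2-2* had 244 counts in npl3∆ and 353 in wild type, a ratio of 0.691 (0.585 to 0.816). Both features were thus lower in npl3∆ by more than the error of independent counts. They have the same sequence and may share reads, so the second is not an independent measurement. The deposited counts also exceeded the reads per sample stated in the paper. Whether 1 fragment can add more than 1 count to a feature was not settled, and the intervals may then be too narrow. Their mean was 265 counts in npl3∆ and 394.5 in wild type, 0.672 times the wild type level (0.573 to 0.788). Less spacer RNA in each cell and fewer cells that contain it cannot be told apart in RNA from whole cultures. Copy 1 had more counts than copy 2 in both libraries, 1.17 times more in npl3∆ (0.985 to 1.40) and 1.24 times more in wild type (1.07 to 1.43).

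Set against the neighbouring parts of the same transcript, the 3′ ETS was low in npl3∆ relative to every part but the 5.8S rRNA. Per count of the 3′ ETS there were 541 counts of the 5′ ETS, the spacer at the opposite end, in npl3∆ and 270 in wild type, so the quotient of 3′ ETS to 5′ ETS was 0.50 times that of wild type (0.427 to 0.587). For ITS1, which lies between the 18S and 5.8S rRNAs, the corresponding value was 0.422 (0.360 to 0.495), and for ITS2, between the 5.8S and 25S rRNAs, it was 0.640 (0.546 to 0.751). The 3′ ETS therefore differed from all 3 other spacers. In counts as deposited these were higher in npl3∆ than in wild type, by 1.34 times (5′ ETS), 1.59 times (ITS1) and 1.05 times (ITS2). Counts outside the rRNA were 1.39 times those of wild type, or 1.18 times without *ATG26* and *BDF1*, 2 genes with large differences. Per such counts ITS1 would stay higher in npl3∆ and ITS2 would be lower. The 5′ ETS would be higher only without these 2 genes. The quotients do not depend on this choice. Against the mature rRNAs the quotient was 0.748 times that of wild type for the 18S rRNA (0.639 to 0.878) and 0.689 times for the 25S rRNA (0.588 to 0.809). For the 5.8S rRNA it was 0.944 (0.806 to 1.11), an interval that holds 1, and the 5.8S rRNA itself was at 0.712 times the wild type count in npl3∆.

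**Figure D1:**
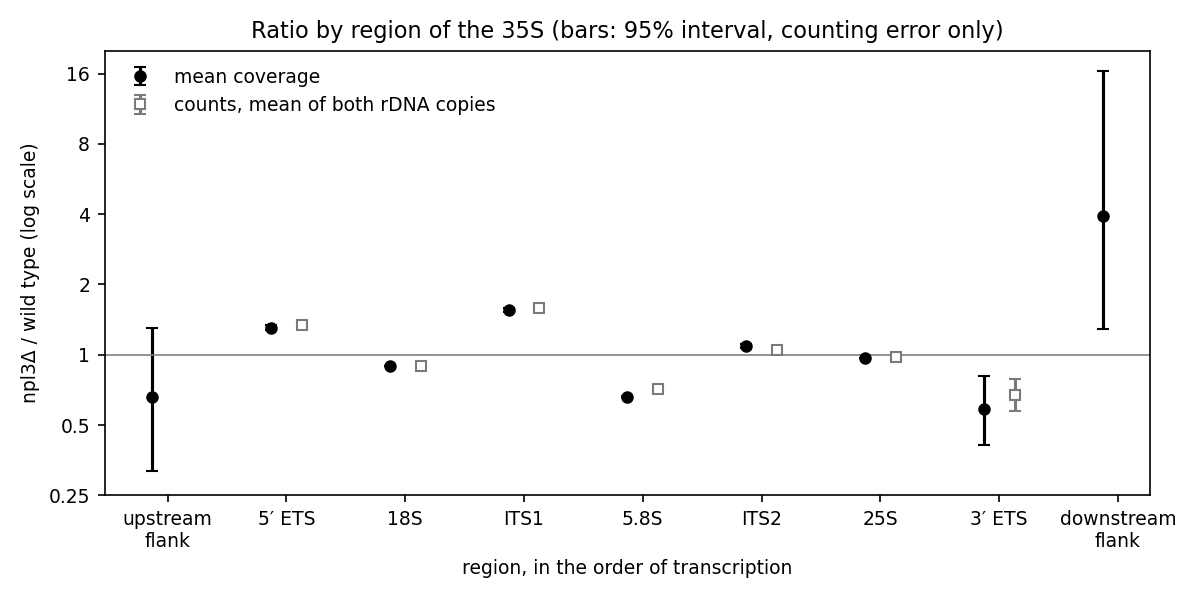
Ratio of npl3∆ to wild type (log axis) for each region in the order of transcription, from mean coverage (filled circles) and from counts averaged over both rDNA copies (open squares, which the flanks lack), with 95% intervals for counting error. The 3′ ETS lies at 0.583 by coverage and 0.672 by counts, the upstream flank at 0.658 with an interval across 1, and the downstream flank at 3.94 with the widest interval.

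The deposited coverage is a signal of fragments over each nucleotide in steps of 0.5, and not a plain number of fragments. It placed the 3′ ETS at a mean of 56.9 in npl3∆ (range 7 to 108) and 97.6 in wild type (range 14 to 178). These levels were 0.00416% of the 25S mean in npl3∆ and 0.00691% in wild type, and the next lowest part, the 5′ ETS, averaged 14068 in npl3∆ and 10791 in wild type. The ratio of the means was 0.583, with an interval of 0.412 to 0.814 when the mean coverage is taken as the number of fragments. Every nucleotide of the 3′ ETS was lower in npl3∆ (100%, against 55.5% of all nucleotides of the table), and 92.9% were lower by more than 1.5 times (7.07% of all). Neighbouring nucleotides share fragments, so these shares are not counts of independent values. Of the 492 nucleotides of the whole table that were more than 1.5 times lower in npl3∆, 196 lay in the 3′ ETS, 164 in the 18S rRNA, 86 in the 5.8S rRNA and 25 in the upstream flank. The last nucleotide of the 25S rRNA itself had a coverage of only 93.5 in npl3∆ and 164 in wild type. Low coverage near this end is therefore no measure of how scarce the RNA is.

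**Figure D2:**
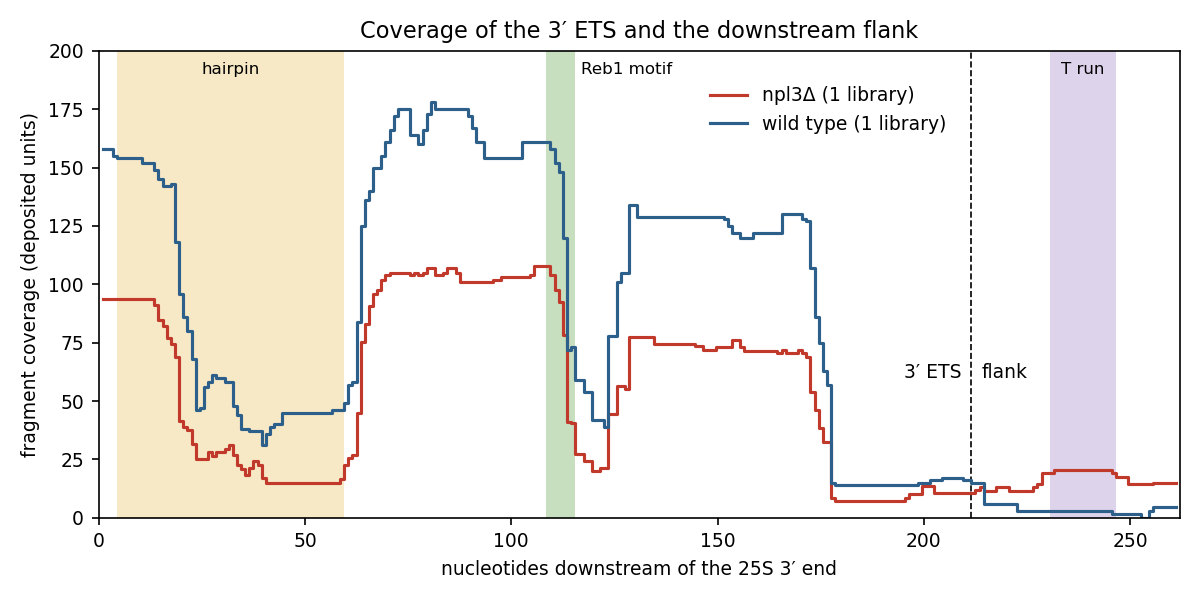
Fragment coverage per nucleotide downstream of the 25S 3′ end in npl3∆ and in wild type (linear axis), with the predicted hairpin, the Reb1 motif and the T run shaded and the end of the 3′ ETS dashed. Both libraries show 3 high stretches, and wild type lies above npl3∆ up to the end of the 3′ ETS and below it from the fourth nucleotide of the flank on.

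Within the 3′ ETS the coverage was uneven, and its shape was nearly the same in both genotypes. Coverage stayed at or above 0.5 times its highest value in 3 stretches, which ran from positions 1 to 19, 64 to 113 and 126 to 173 in npl3∆ and from 1 to 20, 64 to 113 and 126 to 173 in wild type. In the stretch from 64 to 113 the mean was 102 in npl3∆ and 161 in wild type, and in that from 126 to 173 it was 71.9 in npl3∆ and 125 in wild type. These stretches were 50 and 48 nt long, which is close to the length of 1 sequencing read. The 5 largest single-nucleotide rises lay at the same positions in the same order (64, 124, 129, 63 and 126), and of the 10 largest changes in each direction 7 rises and 8 falls were shared.

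The hairpin began within the first stretch and covered most of the gap after it. Over the 5′ arm of the hairpin (positions 5 to 29) coverage averaged 65.1 in npl3∆ and 115 in wild type, over the tetraloop 28.9 in npl3∆ and 56.0 in wild type, and over the 3′ arm (positions 34 to 59) 16.7 in npl3∆ and 42.1 in wild type. The second largest fall in npl3∆, by 27.5, came at position 20 in the 5′ arm, and wild type fell there by 22 and at position 19 by 25. Coverage thus decreased along the hairpin in both libraries and was high again directly after it.

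The Reb1 motif marked the end of the second stretch. Coverage was 108 in npl3∆ and 161 in wild type at its first nucleotide, and 40.5 in npl3∆ and 73 in wild type at its last. The largest fall of the whole spacer lay within it in both libraries, by 37.5 in npl3∆ and 48 in wild type at position 114. Signal did not end there, since the 96 nt after the motif still averaged 43.5 in npl3∆ and 76.5 in wild type.

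The last marked fall came at position 178, by 24 in npl3∆ and 42 in wild type. The 34 nt from there to the end of the 3′ ETS averaged 8.85 in npl3∆ and 14.9 in wild type. Relative to the 50 nt before them this was 12.7% in npl3∆ and 12.2% in wild type, a ratio of 1.04 (0.382 to 2.71). At this depth the proportional decline toward the end of the spacer could not be told apart between genotypes.

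The deficit in npl3∆ was spread over the spacer, with ratios that varied between positions but had overlapping intervals. In successive windows of 50 nt, the ratio was 0.546 (0.375 to 0.784) for positions 1 to 50, 0.601 (0.447 to 0.793) for 51 to 100, 0.595 (0.438 to 0.811) for 101 to 150 and 0.568 (0.372 to 0.849) for 151 to 200. The windows overlapped in their intervals, and each held a like share of the spacer's signal in both libraries, from 20.1% in npl3∆ and 21.4% in wild type in the first to 16.4% in npl3∆ and 16.8% in wild type in the fourth. Single nucleotides had log2 ratios between -1.62 and -0.15. The lowest was at positions 57 and 58, at the foot of the hairpin's 3′ arm, with 15 in npl3∆ and 46 in wild type, a ratio of 0.326 (0.169 to 0.595). The highest was at positions 200 and 201, with 13.5 in npl3∆ and 15 in wild type, a ratio of 0.90 (0.417 to 2.07). At the 50 nt steps, coverage was 15 in npl3∆ and 45 in wild type at position 50, and it was 103 in npl3∆ and 154 in wild type at position 100. At position 150 it was 73 in npl3∆ and 129 in wild type, and at position 200 it was 13.5 in npl3∆ and 15 in wild type.

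The unbroken run of lower coverage in npl3∆ that holds the 3′ ETS began inside the 25S rRNA, not at the annotated border. Farther in, coverage was also lower in npl3∆ in places, such as 58 to 52 nt from the 25S 3′ end. The nucleotide 18 nt from the 25S 3′ end was the last with higher coverage in npl3∆, at 281 in npl3∆ and 255 in wild type, and the next had 172 in npl3∆ and 202 in wild type. The last 18 nt averaged 130 in npl3∆ and 186 in wild type, 0.697 times wild type (0.554 to 0.879), above the highest nucleotide of the 3′ ETS in each library (108 in npl3∆ and 178 in wild type). From there the run of lower nucleotides continued for 231 nt, through the whole 3′ ETS and into the first 3 nt of the downstream flank. It was the third longest such run of the table, after runs of 325 nt in the 25S rRNA and 246 nt in the 18S rRNA, and its median log2 ratio of -0.79 was farther from 0 than the -0.27 and -0.42 of those longer runs.

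**Figure D3:**
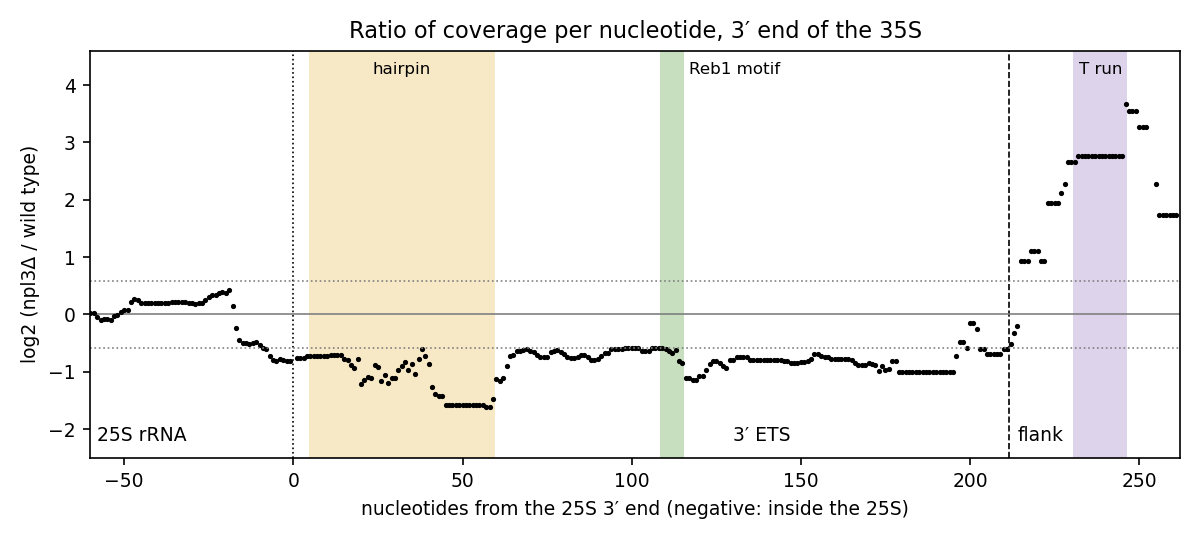
Log2 ratio of coverage in npl3∆ to wild type per nucleotide, from the last 60 nt of the 25S rRNA to the end of the downstream flank, with dotted horizontal lines at a 1.5-fold difference. The ratio is slightly negative from 58 to 52 nt before the 25S 3′ end. It stays below 0 from 17 nt before that end over the whole 3′ ETS. It is positive from the fourth nucleotide of the flank, where the 2 nucleotides with no coverage in wild type have no point.

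Beyond the 3′ ETS the order of the genotypes was reversed. The downstream flank averaged 15.96 in npl3∆ (range 10.5 to 20.5) and 4.05 in wild type (range 0 to 15). The first 3 nt still had lower coverage in npl3∆, at 10.5, 12 and 13 in npl3∆ against 15 at each in wild type. In wild type the coverage then stepped down to 6 at the fourth nucleotide and to 3 at the twelfth, whereas in npl3∆ it stayed between 11.5 and 13 up to the sixteenth. All the remaining 47 nt were more than 1.5 times higher in npl3∆ (94% of the flank, against 12.3% of all nucleotides of the table). The highest coverage of the flank in npl3∆ lay on the T run, where it averaged 20.3 in npl3∆ and 2.91 in wild type.

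The ratio over the downstream flank was 3.94 (1.29 to 16.4), but it rests on very few fragments. In wild type 33 of its 50 nt had a coverage of 3 or less, the level treated as a floor, and 2 nt had none, so no ratio was formed there. All 50 values of wild type were multiples of 1.5, but only 8 of the 50 in npl3∆, so what 1 fragment is worth was not settled. If 1.5 units stood for 1 fragment in both libraries, the interval would be 0.969 to 20.5 and would hold 1. The 25 nt next to the 3′ ETS had a ratio of 2.70 (1.04 to 10.6) and the 25 nt farther away 6.41 (1.64 to 30.2). The largest single ratio, at the last T of the run, was 19 in npl3∆ to 1.5 in wild type.

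As a measure of read-through, the mean coverage of the downstream flank was divided by that of the 3′ ETS in the same library. The flank reached 28.0% of the 3′ ETS in npl3∆ and 4.15% in wild type, a quotient 6.76 times that of wild type (2.06 to 29.3). With 1.5 units as 1 fragment the interval was 1.505 to 36.6, which only just lay above 1. If 1 fragment were worth more units, the interval would be wider and might hold 1. Over the last 50 nt of the 3′ ETS, which include part of the stretch before the fall at position 178, the flank was at 62.1% in npl3∆ and 8.86% in wild type. Over the 34 nt from that fall to the end of the spacer, it was at 180% in npl3∆ and 27.3% in wild type, a ratio of 6.61 (1.44 to 34.8). In npl3∆ the flank was thus covered more than the spacer next to it. Coverage in npl3∆ was also uneven within the 3′ ETS itself, from 7 to 108. Whether the flank's signal runs unbroken across the end of the 3′ ETS was not tested. How paired reads lie across that border was not analysed, and the quotient is no count of transcripts that read through. Both terms of the quotient differed, since the spacer was lower and the flank higher in npl3∆. The flank ends 50 nt beyond the spacer, so how far the signal continues was not analysed here.

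Signal before the start of the 35S pre-rRNA was low in both libraries and did not differ between them beyond counting error as a whole. The upstream flank averaged 15.3 in npl3∆ (range 4.5 to 24) and 23.2 in wild type (range 6 to 51), a ratio of 0.658 (0.316 to 1.30). All its 50 nt were lower in npl3∆ (100%, against 55.5% of all nucleotides of the table), 25 of them by more than 1.5 times (50%, against 7.07%). At the nucleotide before the start, coverage was 21 in npl3∆ and 51 in wild type, a ratio of 0.412 (0.235 to 0.697). From there to 8 nt before the start, where it was 0.571 (0.331 to 0.966), every interval lay below 1. These intervals take each unit as 1 fragment, and the nucleotides share fragments. In wild type it declined away from the start, to 26 at 20 nt and 14 at 35 nt before it, while npl3∆ was level at 22.5 to 24 over most of the first 22 nt and then declined to 6 at 35 nt. The 3 nt farthest from the start stood apart in both libraries, with 24 in npl3∆ and 30 in wild type, against 4.5 in npl3∆ and 6.5 in wild type at the neighbouring nucleotide. The extremes of the ratio lay at 40 nt before the start, with 4.5 in npl3∆ and 12 in wild type, and at 15 nt, with 23 in npl3∆ and 26 in wild type. The intervals of both held 1 (0.0784 to 1.10 and 0.482 to 1.61).

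**Figure D4:**
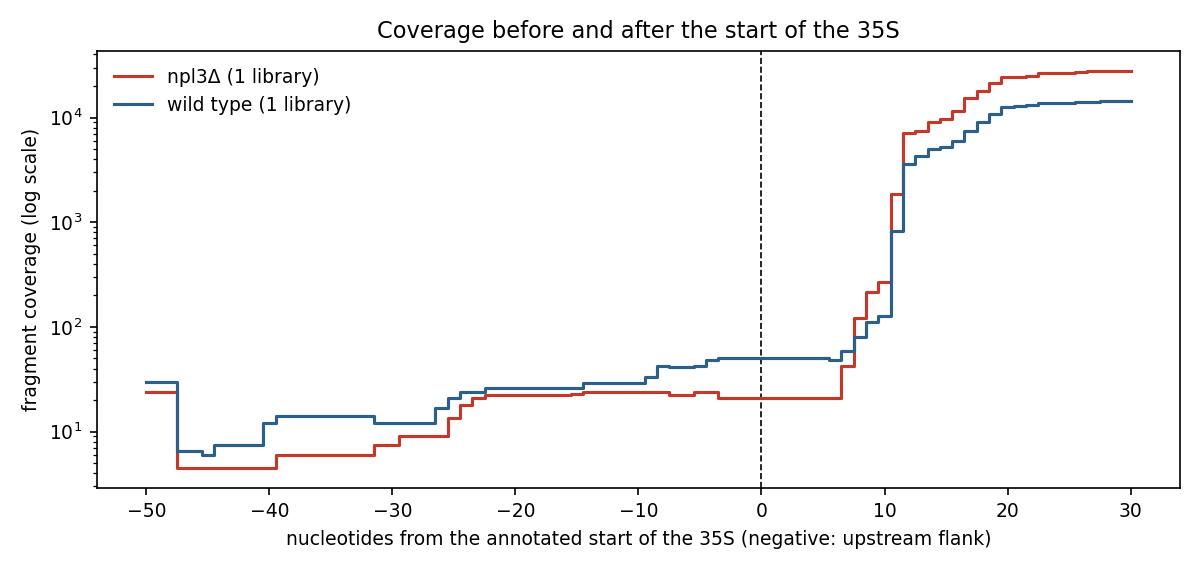
Fragment coverage (log axis) in npl3∆ and in wild type from 50 nt before to 30 nt after the annotated start of the 35S pre-rRNA, marked by a dashed line. Wild type lies above npl3∆ over the whole upstream flank and the first 7 nt of the transcript, and npl3∆ lies above wild type from the eighth.

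The flank's level ran on past the annotated start. Over the first 6 nt of the 5′ ETS, coverage remained at 21 in npl3∆ and 48 to 50 in wild type, and the order of the genotypes changed only between the seventh nucleotide (42 in npl3∆ and 59 in wild type) and the eighth (123 in npl3∆ and 80 in wild type). Coverage passed 1000 at the eleventh nucleotide in npl3∆ and at the twelfth in wild type. Over nucleotides 11 to 50 the mean was 25393 in npl3∆ and 13567 in wild type, 1.87 times wild type. High coverage thus began about 10 nt inside the annotated transcript in both libraries, where npl3∆ was the higher. The low signal of the upstream flank went the other way, but as a whole only within counting error (0.316 to 1.30). Relative to the 5′ ETS, the upstream flank was at 0.109% in npl3∆ and 0.215% in wild type, a ratio of 0.505 (0.243 to 1.00).

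The outer flanks thus differed from each other. The downstream flank had 104% of the coverage of the upstream flank in npl3∆ and 17.4% in wild type, a ratio of 5.99 (1.52 to 29.2). In npl3∆ the flanks were close in level, and in wild type the upstream flank was the higher.

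The mRNAs of the factors that act on these regions were compared after scaling to the counts of all features other than rRNA. Among 10 genes for cleavage, trimming and termination at the 3′ end, none was more than 1.5-fold higher or lower in npl3∆, against 16.5% of 6118 genes that were higher and 12.0% that were lower by that much. The highest was *SEN1*, a helicase that takes part in termination, with 1309 counts in npl3∆ and 648 in wild type (log2 ratio 0.54 after scaling). It was followed by *NSI1*, for the terminator-binding relative of Reb1, with 278 counts in npl3∆ and 140 in wild type (0.51). The lowest was *GRC3*, for a polynucleotide kinase needed for termination by RNA polymerase I, with 143 counts in npl3∆ and 134 in wild type (-0.38). *RNT1*, for the nuclease that cuts the hairpin, had 116 counts in npl3∆ and 93 in wild type (-0.16), and *RAT1*, for the exonuclease, had 538 counts in npl3∆ and 481 in wild type (-0.31). *REB1* had 430 counts in npl3∆ and 372 in wild type (-0.27), and *REX1* 179 counts in npl3∆ and 105 in wild type (0.29).

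Among 10 genes for initiation by RNA polymerase I, only *RRN9*, for a subunit of the upstream activation factor, passed 1.5-fold, and it was higher in npl3∆, as were 16.5% of all genes by that much. It had 132 counts in npl3∆ and 62 in wild type, a scaled ratio of 1.53 (1.12 to 2.10). The lowest was *UAF30*, for another subunit of that factor, with 33 counts in npl3∆ and 28 in wild type (log2 ratio -0.24). The scaling depends on *ATG26* and *BDF1*, 2 genes with large differences in counts, and without them the median of all genes, 0.02, became 0.26. The median of the 3′ list was -0.14 and became 0.10, so its sign depended on the scaling, but relative to all genes it was -0.15 under both. The median of the initiation list was 0.16 and became 0.40, or 0.14 relative to all genes under both. Without these 2 genes, *NSI1*, *SEN1* and *HMO1* were also more than 1.5-fold higher, and among all genes 26.5% were higher and 6.75% lower by that much.

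**Figure D5:**
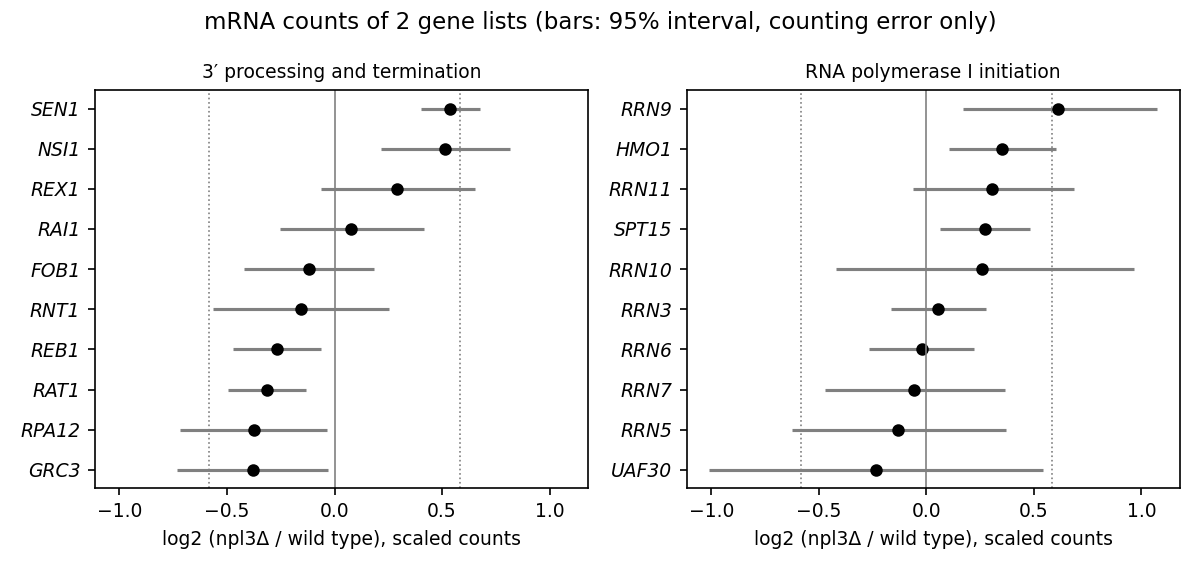
Log2 ratio of npl3∆ to wild type after scaling to counts outside the rRNA for 10 genes of 3′ processing and termination (left) and 10 genes of RNA polymerase I initiation (right), with 95% intervals for counting error and dotted lines at a 1.5-fold difference. The 3′ genes lie between -0.38 and 0.54 and the initiation genes between -0.24 and 0.61, and only *RRN9* passes a dotted line.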

How the data were processed

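Total RNA of 1 npl3∆ and 1 wild type sample, grown at 25 °C, was sequenced by the authors without rRNA depletion from stranded libraries in paired reads of 50 bp, mapped with HISAT2 to sacCer3 and counted with featureCounts. Versions, annotation and the treatment of reads with several positions are not given in the sources used here. The counts were deposited as raw integers, and the 3′ ETS is also part of the *RDN37* features. The deposited coverage is a signal of fragments per nucleotide on the strand of the 35S pre-rRNA, calculated by the authors with deepTools and not scaled between libraries, and its values lie in steps of 0.5. Both tables were used with all columns of sample values (0 left out).

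Row 1 of the coverage was taken as the 3′ end: in that direction the summed coverage per count was between 41.3 and 72.2 nt for every part of the transcript in both libraries, and in the other it reached 11692 nt. Regions were cut by the RefSeq annotation of the same build (rows 51 to 261, 1 to 50 and 6909 to 6958). Counts were averaged over both rDNA copies. Ratios used the values as deposited. Ratios of quotients carry the exact conditional interval of the odds ratio, and coverage intervals take the rounded mean coverage as a number of fragments. Gene lists used a pseudocount of 0.5, at least 10 counts and scaling to 7103 features outside the rRNA and the 2 genes inside it. Members and lists were chosen with earlier results of these data known. Named in the text were both features and all 3 regions in full, *NPL3*, list genes past 1.5-fold or the highest and lowest, and nucleotides at edges, 50 nt steps, motifs, largest steps and extreme ratios. *MFA2*, *MF(ALPHA)1*, *ATG26*, *BDF1* and the other list genes with values were chosen after their values were seen. Alternatives changed denominators, parts of regions and the scaling, pseudocount and minimum of the lists. In simulated libraries of 6142 genes, drawn as independent Poisson counts, 96.0% of the intervals contained the ratio used to draw the counts. This checks the calculation only, since the exact interval is built for such draws. Whether the deposited counts and coverage behave like them was not tested. RNA was folded with ViennaRNA 2.7.2, intervals were calculated with scipy 1.17.1 and the rest with numpy 2.4.6, pandas 2.3.3 and Python 3.11.15, and plots were drawn with matplotlib 3.10.9.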

Additional observations from a re-analysis of the deposited data

How the results depend on the processing

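Of 31 alternatives, 27 kept the value within the interval of the main one. The count ratio of the 3′ ETS was 0.483 per count outside the rRNA and 0.571 when *ATG26* and *BDF1* were also left out of that scaling, lower than the 0.672 of the deposited counts. The median of the 3′ gene list changed sign to 0.10 and that of the initiation list was 0.40 under the scaling without these 2 genes. The ratios of both flanks and of read-through kept their direction in every alternative listed, from 2.70 to 6.41 for the downstream flank, 0.473 to 0.678 for the upstream flank and 6.61 to 7.01 for read-through. Leaving out the 3 nt next to the 3′ ETS (4.84) or the 3 nt farthest from the start (0.646), dividing by the last 34 nt of the 3′ ETS (6.61) and counting 1.5 units as 1 fragment were chosen after seeing the data.

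Depth limits the flanks most, at a mean of 4.05 in wild type downstream. No paired analysis was possible because each genotype had 1 library. Without replicates, variation between cultures is not covered by any interval given here.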
